A study of Mus musculus with 4 samples.

Results

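DNA methylation was examined in mouse islets at 9 genes that adult beta cells use to sense glucose. They were Slc2a2, G6pc2, Slc30a8, Ucn3, Glp1r, Abcc8, Kcnj11, Pcx and Trpm5, taken by name. A region was a stretch of methylated DNA made by joining the peaks of 4 libraries wherever they overlapped by at least 1 bp, and it belonged to a gene if it lay in the gene body or in the 5 kb upstream (GENCODE M21 annotation, GRCm38/mm10). By this rule the 9 genes held 33 of 186169 regions, in 6 of the genes, and 12 of the 33 had a peak in all 4 libraries.

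The libraries came from handpicked islets of C57BL/6 mice 8 weeks of age, 2 libraries from WT mice and 2 from βRapKO mice. All mice carried the floxed Raptor allele on both copies (Raptor lox/lox), and βRapKO mice carried RipCre in addition, a Cre recombinase under the rat insulin promoter, which acts in beta cells. The labels give C57BL/6 for every library, while the methods name a mixed background, part C57BL/6J, for the RipCre line. The Raptor gene encodes the defining subunit of mTORC1. Methylated DNA was pulled down with an antibody and sequenced (MeDIP-seq), so each value is an enrichment and not a percentage of methylated cytosines. Whole islets hold alpha, delta and other cells in which Cre is not active, so a change in beta cells and a change in the share of beta cells cannot be told apart. The labels do not say whether the 2 libraries of a genotype came from separate animals or pools, so every p-value measures only the spread between these libraries.

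A mature beta cell takes up glucose through a low-affinity transporter, burns it and couples the rise in ATP to closure of potassium channels, entry of calcium and release of insulin. Neonatal beta cells release insulin at low glucose, and gain the high threshold as genes of this machinery switch on after birth. Cytosine methylation in mammals lies mostly at CpG sites. Promoters rich in CpG sites are usually free of it, while gene bodies are usually methylated.

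Of the genes, Slc2a2 encodes the glucose transporter GLUT2, and G6pc2 the islet glucose-6-phosphatase that opposes glucokinase. Pcx encodes pyruvate carboxylase, which feeds pyruvate into the mitochondrial cycle. Abcc8 and Kcnj11 encode SUR1 and Kir6.2, the subunits of the ATP-sensitive potassium channel, and Trpm5 a calcium-activated cation channel. Glp1r encodes the receptor of the incretin GLP-1, Slc30a8 the zinc transporter ZnT8 of insulin granules, and Ucn3 the peptide urocortin 3, a marker of beta cell maturity.

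The sequences at the summits of 6 of 9 regions are shown. All 9 carried the most tags of their gene or were called in 1 genotype alone or stood past a 1.5-fold difference. Capitals mark CpG sites, the bases the assay responds to when they are methylated. All were read from the GRCm38 reference along the strand of the gene, 200 bases each, with the window in Slc2a2 shortened to 168 bases of coding sequence.
Slc2a2 region 1, coding part of the last exon, chr3:28727306-28727473, plus strand: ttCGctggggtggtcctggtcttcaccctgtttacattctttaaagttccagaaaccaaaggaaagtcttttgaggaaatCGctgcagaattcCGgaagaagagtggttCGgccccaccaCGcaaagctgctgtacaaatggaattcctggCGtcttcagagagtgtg
Glp1r region 1, intron 1, chr17:30907281-30907480, plus strand: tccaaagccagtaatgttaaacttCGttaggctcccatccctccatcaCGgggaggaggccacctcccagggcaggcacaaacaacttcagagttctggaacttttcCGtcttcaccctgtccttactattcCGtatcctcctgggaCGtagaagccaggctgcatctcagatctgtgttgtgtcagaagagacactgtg
Abcc8 region 1, upstream, chr7:46183069-46183268, minus strand: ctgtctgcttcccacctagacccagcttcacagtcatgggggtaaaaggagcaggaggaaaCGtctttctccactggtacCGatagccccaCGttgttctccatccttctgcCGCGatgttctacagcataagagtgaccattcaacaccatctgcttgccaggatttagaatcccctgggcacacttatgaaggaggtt
Abcc8 region 9, intron 28, chr7:46114621-46114820, minus strand: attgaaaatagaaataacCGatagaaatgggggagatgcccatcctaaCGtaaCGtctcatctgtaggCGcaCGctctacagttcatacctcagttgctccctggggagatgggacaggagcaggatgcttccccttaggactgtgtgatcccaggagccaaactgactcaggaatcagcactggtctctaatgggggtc
Pcx region 10, exons 13 and 14 and the intron between them, chr19:4618036-4618235, plus strand: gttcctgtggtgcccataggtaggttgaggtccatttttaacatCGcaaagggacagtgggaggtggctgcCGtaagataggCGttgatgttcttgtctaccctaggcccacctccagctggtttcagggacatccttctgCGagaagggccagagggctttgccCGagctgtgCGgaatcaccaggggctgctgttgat
Trpm5 region 3, intron 15, chr7:143080462-143080661, minus strand: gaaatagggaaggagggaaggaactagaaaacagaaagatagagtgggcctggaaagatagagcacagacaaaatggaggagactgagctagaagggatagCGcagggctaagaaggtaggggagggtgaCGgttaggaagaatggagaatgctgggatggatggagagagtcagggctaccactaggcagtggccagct
The windows of Slc2a2 and Pcx held 6 CpG sites each, those of Glp1r and both Abcc8 regions 5 each, and that of Trpm5 2. The 3 windows not shown were richer, with 7 sites in G6pc2 region 1 and 11 each in Abcc8 region 2 and Pcx region 8. As whole regions, the 33 had a median of 1.80 CpG sites per 100 bp, between 0.470 and 3.14, against 1.60 for all 186169 regions.

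Each library held between 25585533 and 31330751 tags after the authors' removal of duplicates, and between 117638 and 151093 peaks, most in WT replicate 2. Peaks held between 29.2% and 35.4% of the tags, most again in WT replicate 2. Replicates of a genotype differed by more than counting noise, with a mean chi-square of 2.29 per region in WT and 2.24 in βRapKO, and counted as separate libraries. Rptor, the targeted gene, had its largest tag count in intron 1 (chr11:119627175-119629543). Scaled to 1000000 tags of the library (CPM), that region held 9.69 and 9.86 in WT and 7.70 and 9.43 in βRapKO. The log2 fold-change there came to −0.19 (adjusted p = 0.866, quasi-likelihood test of edgeR, adjusted after Benjamini and Hochberg over all tested regions, as throughout). MeDIP-seq does not report whether the floxed exon was removed.

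The map of peaks by library shows where methylated DNA was found in each gene. None of the 9 genes had a region within 1 kb of the start of its record, compared with 21.1% of 21938 protein-coding genes that had one. Nearly all regions lay inside genes, 29 in gene bodies, 19 of the 33 touching an exon and 10 in introns alone. A single region, in Abcc8, lay upstream of a gene, and 3 lay in the G6pc2 record ahead of its principal transcript, which starts well inside the record. The nearest of these 3 lay 0.847 kb ahead of that transcript, so within 1 kb of it, and was called in 1 library.

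**Figure D1:**
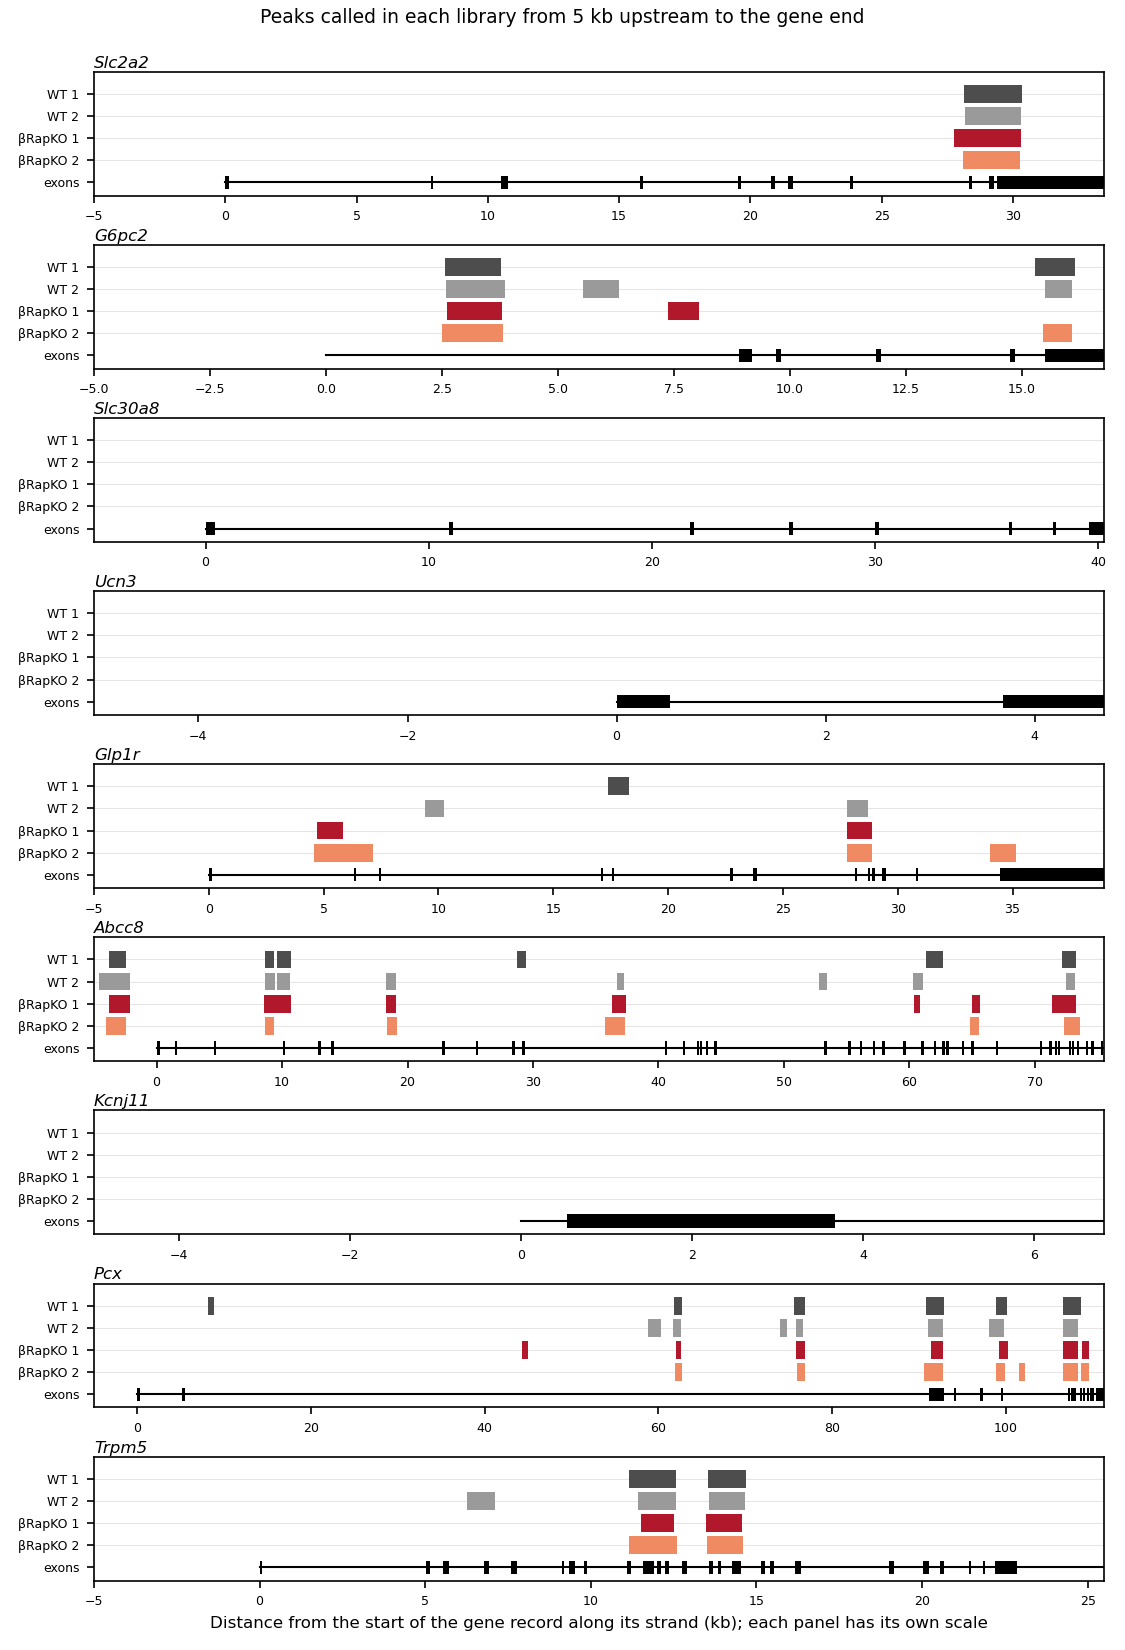
Peaks in each of the 4 libraries (coloured bars) along the 9 genes, with exons of the principal transcript in black, short exons widened to stay visible; the x axis is the distance in kb from the start of the gene record along its strand, scaled separately for each gene. Slc30a8, Ucn3 and Kcnj11 held no peak, and in Slc2a2 all 4 libraries had 1 peak, over the last exons.

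No region at all was found in 3 genes, Slc30a8, Ucn3 and Kcnj11, and 18.8% of protein-coding genes had none. A long gene is less often without a region than a short one, so each was set beside genes whose window was at least as long. The window of Slc30a8 (gene chr15:52295553-52335798) spanned 45.2 kb, and 114 of 6075 such genes, 1.88%, had no region. The closest region to the start of Slc30a8 was 23.5 kb away. For Ucn3 (chr13:3940688-3945349), with a window of 9.66 kb, the share was 2374 of 18131 genes, 13.1%. For Kcnj11 (chr7:46093953-46100764), with a window of 11.8 kb, it was 1650 of 16209 genes, 10.2%. The genes compared include longer ones, so these shares may understate how often a gene of the same length has no region.

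These 3 windows differed in how many CpG sites they offered. Slc30a8 had 277 sites, 0.612 per 100 bp, and Ucn3 had 80, 0.828 per 100 bp, both under the median of 1.17 for windows of protein-coding genes. Kcnj11, a gene of 1 exon, had 275 sites in its shorter window, 2.33 per 100 bp, the highest density of the 9 genes. The region nearest to Kcnj11 began 0.678 kb past the edge of its window and was region 10 of the neighbouring Abcc8, inside that gene. An absent peak means that the library did not reach the caller's threshold, not that no cytosine was methylated.

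Promoter sequences of 3 genes are shown to set CpG-poor starts beside a CpG-rich one. The 3 were chosen after the values had been seen, each is the 250 bases ahead of an annotated start in RefSeq (GRCm38.p6), and capitals again mark CpG sites.
Slc2a2 promoter, chr3:28697653-28697902, plus strand: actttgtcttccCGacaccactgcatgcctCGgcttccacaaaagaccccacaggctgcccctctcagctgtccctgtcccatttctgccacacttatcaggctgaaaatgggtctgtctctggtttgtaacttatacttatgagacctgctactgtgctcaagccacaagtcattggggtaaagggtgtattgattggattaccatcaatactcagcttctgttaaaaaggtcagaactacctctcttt
Ucn3 promoter, chr13:3945350-3945599, minus strand: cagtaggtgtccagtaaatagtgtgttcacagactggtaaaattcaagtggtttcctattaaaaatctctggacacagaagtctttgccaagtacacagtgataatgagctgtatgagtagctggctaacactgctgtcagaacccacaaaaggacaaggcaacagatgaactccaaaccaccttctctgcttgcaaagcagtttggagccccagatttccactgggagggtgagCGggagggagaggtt
Pcx promoter, chr19:4510222-4510471, plus strand: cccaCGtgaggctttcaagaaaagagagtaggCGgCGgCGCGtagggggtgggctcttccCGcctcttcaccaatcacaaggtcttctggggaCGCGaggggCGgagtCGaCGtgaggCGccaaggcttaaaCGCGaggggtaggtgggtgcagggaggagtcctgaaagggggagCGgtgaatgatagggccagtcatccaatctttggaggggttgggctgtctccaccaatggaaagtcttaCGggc
The Slc2a2 promoter held 2 CpG sites, the Ucn3 promoter 1 and this Pcx promoter 16, while the median over 32851 RefSeq promoters was 6. Pcx has another annotated start, and the 250 bases ahead of it (chr19:4594069-4594318) held 4. None of the 3 stretches shown lay in a peak of any library. The same held for the starts of Glp1r and Abcc8, where 300 bases around the start of the gene record held 30 and 25 CpG sites.

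Slc2a2, the glucose transporter gene (chr3:28697903-28731359, 11 exons), had 1 region, and it was the strongest of the 9 genes. The region covered exons 9 to 11 (chr3:28725672-28728229) and held 56 CpG sites, and the antisense non-coding gene 1700112D23Rik overlapped it. WT replicates gave 186 and 230 tags there, and βRapKO replicates 196 and 197. As CPM these were 7.27 and 7.34 in WT and 6.71 and 6.75 in βRapKO. Both βRapKO libraries thus lay under both WT libraries, with means of 7.31 ± 0.0504 and 6.73 ± 0.0317 (SD, n = 2 each).

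The difference at Slc2a2 was small, a log2 fold-change of −0.12, and did not pass the test (adjusted p = 0.906, edgeR). Its SE of 0.0085 came from the spread of log2 CPM between replicates and not from the edgeR fit, as for every SE given here. It was smaller than the counting error of these tags alone, 0.10 on the same log2 scale, so the close match of replicates overstates the precision. Per kb of peak the levels were 3.29 and 3.44 CPM per kb in WT and 2.65 and 3.10 in βRapKO. On this scale, which allows regions to be compared, the Slc2a2 region ranked first among the 12 and at the 90.4th percentile of all 75052 regions called in 4 libraries. Scaled to the tags inside peaks instead, the sign turned, to 0.044. The nearest region to the start of Slc2a2 lay 5.67 kb upstream, just outside the window.

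The phosphatase gene G6pc2 (chr2:69211073-69227841) had 4 regions, of which 1 was called in all libraries. Region 1 (chr2:69213575-69214937) lay ahead of the principal transcript, with 47.2% of its bases in repeats. It held 3.09 and 2.59 CPM in WT and 2.12 and 3.08 in βRapKO, so the genotypes overlapped (log2 fold-change −0.12, adjusted p = 0.956, edgeR). The sign turned to 0.0099 without WT replicate 1, to 0.13 without βRapKO replicate 1 and to 0.036 with tags in peaks as library size. Region 3, 0.847 kb ahead of the principal transcript, was the closest to a start of any member, and was called in βRapKO replicate 1 alone with 28 tags. Region 4, over the last exon, had 34, 36 and 36 tags in WT replicates 1 and 2 and βRapKO replicate 2 and no call in βRapKO replicate 1.

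Pcx, the gene of pyruvate carboxylase (chr19:4510472-4621752, 21 exons), had 10 regions, 5 of them in all libraries, the most of the 9 genes. The first 6 lay in the long intron 2, and the 2 with the most tags, regions 7 and 10, lay over exons towards the end of the gene. Region 4 held between 0.924 and 1.34 CPM per library, and region 6 between 1.79 and 2.35. Region 7, over exons 3 to 8 (chr19:4601087-4603293), held 4.18 and 4.76 CPM in WT and 3.05 and 4.04 in βRapKO, without overlap (log2 fold-change −0.34, adjusted p = 0.861, edgeR). Its libraries overlapped per kb of peak, with 2.10 and 2.75 CPM per kb in WT against 2.14 and 1.84 in βRapKO.

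Region 8 of Pcx, at exon 11 (chr19:4608549-4610661), stood past a 1.5-fold difference. It held 1.95 and 3.26 CPM in WT and 1.57 and 1.85 in βRapKO (log2 fold-change −0.62, SE 0.386, adjusted p = 0.858, edgeR). The genotypes did not overlap, but WT replicate 2 stood far above the other 3 libraries, and without it the log2 fold-change was −0.19. The peak of that library was also the widest, at 1710 bp against 1239, 950 and 948 bp, and per kb of peak the log2 fold-change was 0.054.

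Region 10 of Pcx, over exons 12 to 17 (chr19:4617016-4620043), was the only one of the 12 in which both βRapKO libraries lay above both WT libraries. It held 3.87 and 4.40 CPM in WT and 4.72 and 6.20 in βRapKO (log2 fold-change 0.40, SE 0.218, adjusted p = 0.858, edgeR). Each βRapKO library had a second peak at the far end of the region, with 42 and 56 tags, and no WT library had one. These second peaks had a −log10(p) multiplied by 10 of 51.5 and 51.6 from the authors' caller, close to its threshold of 50. A WT library without a second peak may still have held nearly as many tags at the far end. When peaks were joined only if they shared 50% of the shorter one, an alternative added for single regions after the data had been seen, this stretch (chr19:4619066-4620043) split off as a region called in βRapKO alone. The rest then held 3.87 and 4.40 CPM in WT and 3.29 and 4.28 in βRapKO (log2 fold-change −0.13, adjusted p = 0.935, edgeR). The whole region gave −0.068 per kb of peak.

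Abcc8, which encodes the sulfonylurea receptor SUR1 (chr7:46104523-46180033, 39 exons), had 10 regions, 3 of them in all libraries. Region 1 (chr7:46182131-46184651) lay 2.10 to 4.62 kb upstream and held 29 CpG sites. It held 63 and 136 tags in WT and 57 and 62 in βRapKO, or 2.46 and 4.34 against 1.95 and 2.13 CPM. Both βRapKO libraries lay below both WT libraries, and also per kb of peak, with 1.83 and 1.73 against 1.16 and 1.31 CPM per kb. The log2 fold-change of −0.75 (SE 0.414) was the largest of the 12 regions in size. It did not pass the test (adjusted p = 0.849, unadjusted p = 0.0304, edgeR), and without WT replicate 2 it was −0.27.

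Region 2 of Abcc8, around exon 4 (chr7:46169312-46171456), held 3.36 and 3.83 CPM in WT and 3.11 and 1.51 in βRapKO. The low library was βRapKO replicate 2, whose single peak of 744 bp covered part of a region that spanned between 1801 and 2145 bp of peak in the others. The log2 fold-change was −0.64 (SE 0.531, adjusted p = 0.858, edgeR), and it ran from −1.25 without βRapKO replicate 1 to −0.21 without βRapKO replicate 2. Repeats made up 45.9% of its bases. Region 10, over exons 32 to 36 (chr7:46106442-46108623), held 2.15 and 1.92 CPM in WT and 2.91 and 1.99 in βRapKO, with overlap and a log2 fold-change of 0.27 (adjusted p = 0.893, edgeR). The same region was lower in both βRapKO libraries per kb of peak, at 1.57 and 1.54 CPM per kb against 1.89 and 2.64.

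Trpm5 (chr7:143069153-143094642, 25 exons) had 3 regions, of which regions 2 and 3, over exons 9 to 12 and 14 to 16, were called in all libraries. Region 1, at exon 4, had a peak of 43 tags in WT replicate 2 and none elsewhere. Region 2 held 2.38 and 3.06 CPM in WT and 1.85 and 2.19 in βRapKO, without overlap (log2 fold-change −0.44, adjusted p = 0.858, edgeR). Per kb of peak its libraries overlapped, with 1.70 and 2.74 CPM per kb in WT against 1.86 and 1.51 in βRapKO. Region 3 (chr7:143079946-143081152) held 2.50 and 2.71 CPM in WT and 2.22 and 2.57 in βRapKO, with overlap (log2 fold-change −0.12, adjusted p = 0.940, edgeR). Region 3 ranked second among the 12 regions per kb of peak, at 2.28 CPM per kb over the 4 libraries. Its sign turned with tags in peaks as library size, to 0.041.

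Glp1r, the incretin receptor gene (chr17:30901817-30940791, 13 exons), had 5 regions, none of them called in all libraries. Region 4, over exons 8 and 9, came closest, with 49 tags in WT replicate 2 and 41 and 50 in βRapKO. Region 1, which took in exon 2 and parts of introns 1 and 2 (chr17:30906400-30908959), was called in both βRapKO libraries and in neither WT library. It held 53 and 96 tags, or 1.81 and 3.29 CPM, 4.58 to 7.14 kb past the start of the gene. The authors' caller gave these peaks a −log10(p) multiplied by 10 of 53.7 and 68.7, where 50 was the threshold, and enrichments of 4.16- and 5.47-fold over the local background.

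The other region called in βRapKO alone was region 9 of Abcc8, at exon 28 (chr7:46114429-46115204). It held 29 tags in each βRapKO library, 0.992 and 0.994 CPM, and the summits of the 2 peaks lay 5 bp apart. Its values of −log10(p) multiplied by 10 were 62.8 and 54.8. With these, 2 of the 33 regions were called in both βRapKO libraries alone, against 1.58% of all regions, and 0 of 33 in both WT libraries alone, against 4.16%. Tags are known only inside peaks, and the smallest peak anywhere in a WT library had 23 or 24 tags. A call also depends on the local background, so a WT library without a call may still have held tags at either region. At Abcc8 region 9 these may have been nearly as many as in the βRapKO libraries. At Glp1r region 1 the peak of βRapKO replicate 1, with 53 tags, had a value of 53.7, close to the caller's threshold. A WT library without a call there may have held nearly as many tags as that library. Neither region was left when only peaks with a value of at least 100 were used.

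The strength of the calls differed with the number of libraries that had them, with overlap. The highest value over the libraries of a region was taken, which by itself favours regions called in more libraries. The 12 regions called in all libraries made up 36.4% of the 33, beside 40.3% of all regions, and the strongest peak of each had a −log10(p) multiplied by 10 between 68.9 and 676. The 14 regions called in 1 library, beside 27.5% of all regions, had values between 51.0 and 89.2. Of these 14, WT replicates 1 and 2 held 4 and 6, and the βRapKO libraries held 2 each. WT replicate 2 was the deepest library and WT replicate 1 the least deep. The remaining 5, called in 2 or 3 libraries of both genotypes, were in G6pc2, Glp1r and Abcc8. Together with the 2 called in βRapKO alone they had values between 62.8 and 128, so the strongest of them stood above some regions called in all libraries.

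**Figure D2:**
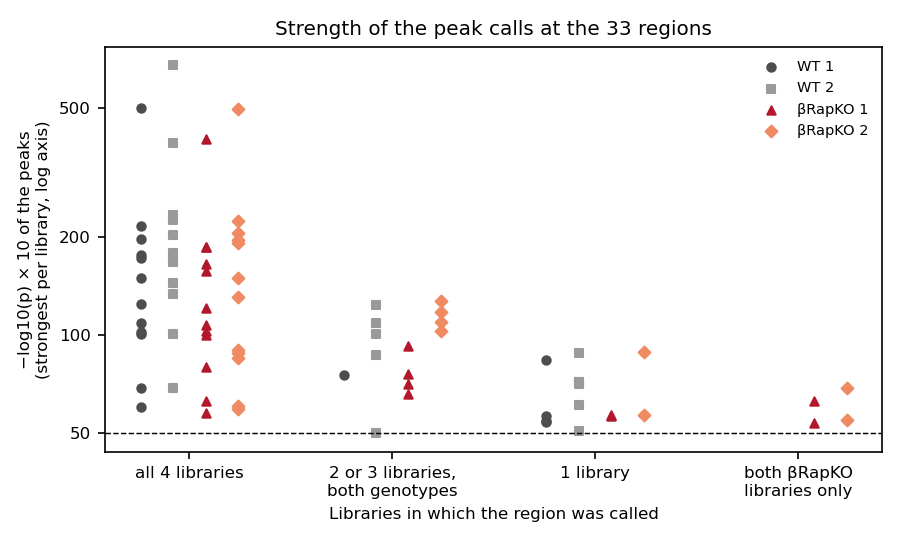
Strength of the peaks at the 33 regions, as −log10(p) multiplied by 10 from the peak caller on a log axis, for each library with a peak (1 point per region and library, coloured by library), by the libraries in which the region was called; the dashed line is the threshold of 50. Regions called in 1 library or in both βRapKO libraries alone stayed below 90, while regions called in all 4 reached 676.

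The question for the 12 regions in all libraries was whether methylated DNA differed between WT and βRapKO islets. None passed an FDR of 0.05 with a fold-change above 1.5 when 75052 regions were tested with edgeR, and 0 of those regions, 0.00%, did. Adjusted p-values of the 12 ran from 0.849 to 0.977. At an unadjusted p under 0.05 there was 1 of the 12, Abcc8 region 1, where 5.81% of all tested regions (4363) stood. The smallest adjusted p of any region was 0.173.

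Among the 12, 10 had a lower mean CPM in βRapKO, where 61.0% of all tested regions did. Their median log2 fold-change was −0.23, against −0.059 for all. The split depended on the scaling, since with TMM normalization 9 of 12 and 49.3% of all regions were lower, and with tags in peaks as library size 6 of 12 and 31.4%. Relative to the median of all regions, the median of the 12 was −0.17 with either library size, tags left after duplicates or tags in peaks. This offset was −0.039 with at least 50 tags in every library and −0.058 with stricter peaks, and ran from −0.24 to −0.11 with 1 library left out. Gene bodies alone, without Abcc8 region 1, had a median of −0.12. The 3 regions past a 1.5-fold difference, Abcc8 regions 1 and 2 and Pcx region 8, were all lower, where 1.77% of all regions were lower and 1.29% higher by as much.

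In 7 of the 12 regions both βRapKO libraries lay below both WT libraries, as in 25.3% of all, and in 1 they lay above, as in 11.6%. An exact permutation test of 2 libraries against 2 cannot give a two-sided p under 0.333, so a single region cannot pass by it. Per kb of peak the balance was different. Again 10 of the 12 were lower, but so were 79.6% of all regions, and both βRapKO libraries lay below both WT libraries in 3 of the 12, against 41.1% of all. Slc2a2 region 1 and Abcc8 region 1 showed no overlap on both scales, 2 of the 12 against 16.5% of all regions.

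**Figure D3:**
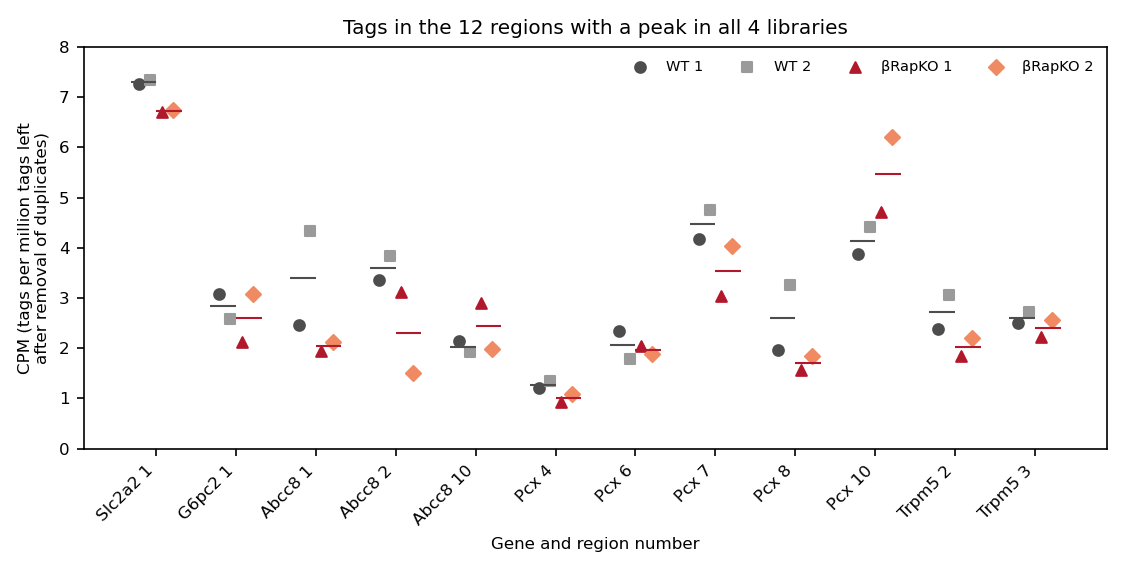
CPM in each of the 4 libraries (points) at the 12 regions called in all 4, with the mean of each genotype as a short line (n = 2). The region of Slc2a2 stood highest, between 6.71 and 7.34, and Pcx region 10 was the only one in which both βRapKO libraries lay above both WT libraries.

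The width of the peaks moved with these differences in most of the 12 regions, though not in Slc2a2 or G6pc2. Over all tested regions the peaks were wider in βRapKO in 70.5%, while at the 12 regions they were wider in 4 and narrower in 8. At the 3 regions past a 1.5-fold difference the mean width fell from 1931 to 1651 bp in Abcc8 region 1, from 1828 to 1444.5 bp in Abcc8 region 2 and from 1474.5 to 949 bp in Pcx region 8. At Pcx region 10 it went from 1873.5 to 2570 bp. Slc2a2 region 1 and G6pc2 region 1 went the other way. Their mean width rose from 2173.5 to 2357 bp and from 1238.5 to 1255 bp, while their mean CPM was lower in βRapKO. The median log2 fold-change of the 12 was −0.18 per kb of peak, against −0.16 for all regions, so on this scale the genes lay close to the background. The part of the peak width in the CPM values was not tested.

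**Figure D4:**
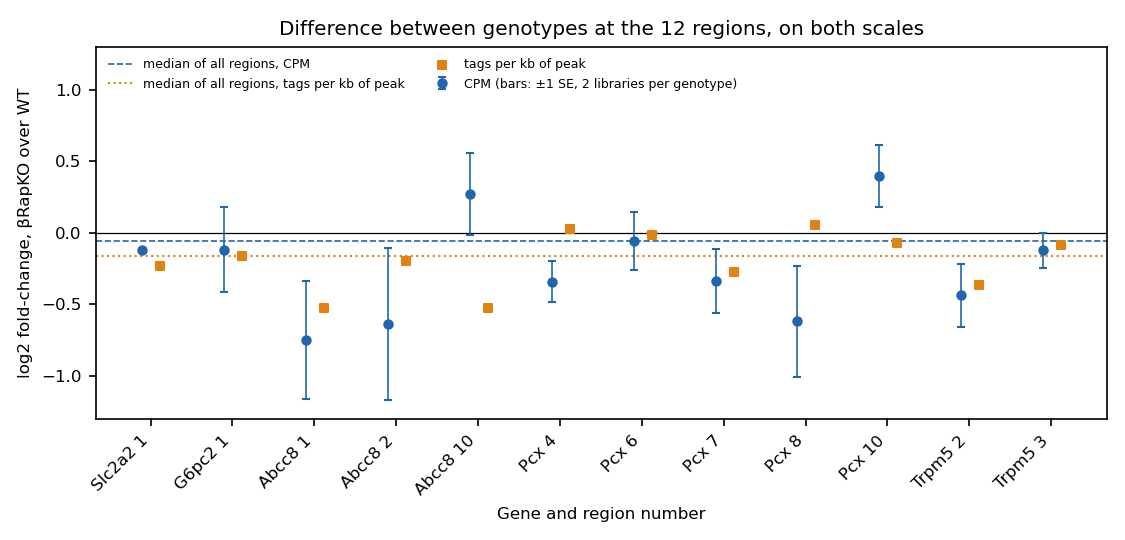
Log2 fold-changes (βRapKO over WT) at the 12 regions by CPM (circles, bars are 1 SE, n = 2 per genotype) and by tags per kb of peak (squares), with the medians of all 75052 regions as dashed and dotted lines. Pcx regions 8 and 10 lay at −0.62 and 0.40 by CPM and near 0 per kb of peak.

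Another 39 genes of the same machinery were taken as a list, in 5 roles. They held 437 regions in 34 genes, 154 of them called in all libraries, and none of the 154 passed the FDR. By mean CPM 84 were lower and 70 higher in βRapKO, 54.5% lower beside 61.0% of all tested regions, with a median log2 fold-change of −0.019 beside −0.059. By role the medians ran from −0.13 for glucose entry and glycolysis (9 lower, 5 higher) to −0.0037 for maturity markers (17 lower, 16 higher). Genes of mitochondrial coupling (7 lower, 6 higher), electrical activity (37 lower, 31 higher) and receptors and cAMP (14 lower, 12 higher) lay between them. Long genes weighed heavily in these counts. Of the 33 regions of maturity markers called in all libraries 31 were in Esrrg, so that median is largely the one of Esrrg. Of the 68 of electrical activity Cacna1c held 25 and Cacna1d 18. Of the 437 regions 20 were called in both WT libraries alone, beside 4.16% of all regions, and 12 in both βRapKO libraries alone, beside 1.58%.

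Of the 154 regions 4 stood past a 1.5-fold difference, 3 higher and 1 lower, where 1.29% of all tested regions were higher and 1.77% lower by as much. A region of Slc2a1 (chr4:119131770-119134592), the gene of the widespread transporter GLUT1, held 2.70 and 3.35 CPM in WT and 5.17 and 4.70 in βRapKO (log2 fold-change 0.70, adjusted p = 0.616, edgeR). It was higher in βRapKO without overlap and did not pass the test. Of 3 Slc2a1 regions called in all libraries, it was the only one past a 1.5-fold difference. Its peaks were wider in βRapKO, and per kb of peak the log2 fold-change was 0.16. A region of Cacna1d, which encodes an L-type calcium channel, gave 0.76 (adjusted p = 0.691, edgeR) and −0.21 per kb of peak. A region of Esrrg, a nuclear receptor gene of maturing beta cells, gave 0.71 (adjusted p = 0.858, edgeR) and −0.020 per kb of peak. The lower one was in Pfkl, a phosphofructokinase gene, at −0.74 (adjusted p = 0.858, edgeR), where βRapKO replicate 1 held 113 tags and the other libraries between 283 and 323.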

How the data were processed

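MeDIP-seq libraries of islets were assigned to WT or βRapKO, with a replicate number, from their labels. Per the file headers and the study's methods, the authors aligned reads to mm10 with Bowtie2 (version 2.2.5) and called peaks library by library with MACS 1.4.2, using no control and a cutoff of p = 1e-05, with 1 tag kept per position. The submitters' notes give the MACS version as 0.14.2. For each peak the authors deposited a count of tags, not normalized. They also deposited a score, the −log10(p) of the peak multiplied by 10, and a ratio, the fold enrichment over the local background. Tags outside peaks and the study's fixed windows were not used here.

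Peaks were joined where they overlapped by 1 bp and tags of a library within a region were added. CPM are tags per 1000000 tags left once duplicates were removed (25585533 to 31330751 in the 4 libraries), with no further scaling. The smallest peak of a library had between 23 and 25 tags, and a call also depends on the local background, so weaker enrichment is not detected. The 75052 regions called in every library entered the quasi-likelihood test of edgeR (version 4.0.16, in R 4.3.3), with p-values adjusted after Benjamini and Hochberg, an FDR of 0.05 and a fold-change of 1.5 as limits, after a check on simulated data. Tags per kb of peak were CPM divided by peak width, compared with limma 3.58.1.

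Positions came from GENCODE M21 and CpG sites from the GRCm38 sequence. RefSeq promoters matched 6 of the 9 genes. The members, lists and tests were chosen with earlier results of these data known. Regions named were, per gene, that with the most tags, any within 1 kb of the start, past a 1.5-fold difference or called in 1 genotype alone; the other regions of the 12 are given as well. Genes of the list of 39 were named where a region stood past a 1.5-fold difference. Alternatives were TMM, other library sizes, DESeq2 (1.42.0), tags per kb of peak, the replicate number as a block, each library left out, at least 50 tags, stricter peaks, equal numbers of peaks, an overlap of 50% and other gene windows.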

Additional observations from a re-analysis of the deposited data

How the results depend on the processing

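No alternative moved a region of the 9 genes past the FDR. Over all regions the number past the FDR and fold-change was 0 in every alternative except DESeq2, which called 2, both higher, with 963 at an unadjusted p under 0.05 against 4363 with edgeR and 8666 with limma on tags per kb of peak. The number of the 12 regions lower in βRapKO was 6 with tags in peaks as library size and between 8 and 10 with 1 library left out, and their median log2 fold-change ran from −0.32 to −0.13 with 1 library left out. Regions called in both WT libraries alone numbered 1 with stricter peaks and between 0 and 6 with 1 library left out, the highest without WT replicate 1, and those in both βRapKO libraries alone numbered 0 with stricter peaks and between 2 and 5, the highest without WT replicate 2. A library left out makes such calls easier.

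For the 7 named regions among the 12, 8 values turned sign. With tags in peaks as library size Slc2a2 region 1 gave 0.044, G6pc2 region 1 gave 0.036 and Trpm5 region 3 gave 0.041, a scaling that raised the median of all regions to 0.10. Per kb of peak Pcx region 8 gave 0.054 and Pcx region 10 gave −0.068. With an overlap of 50% Pcx region 10 gave −0.13. Of the 5 others among the 12, Abcc8 region 10 turned to −0.53 and Pcx region 4 to 0.027 per kb of peak. G6pc2 region 1 ranged from −0.41 to 0.13 with 1 library left out.

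A block for the replicate number left 0 regions past the FDR, with 10 of the 12 lower and a median of −0.23, and 4 of the 12 at an unadjusted p under 0.05 against 1 without the block; it changed no call. Deviations of libraries with the same number correlated at 0.0474, so the numbers were not taken as a pairing. Regions without a call in every library could not be tested, since tags are known only inside peaks.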
